A study of Fragaria x ananassa with 6 samples.

Results

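The transcripts described here are those of the proanthocyanidin branch of flavonoid synthesis in strawberry fruit, FaLAR (leucoanthocyanidin reductase), FaANR1 (anthocyanidin reductase) and gene24665, a gene model that the study describes as an anthocyanidin reductase. They were chosen by name, as the 3 entries of these names among the 35116 gene names on the arrays, and each is read by 1 probe printed as 2 spots. Whether FaANR1 and gene24665 stand for the same gene is not given in the sources used here.

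Proanthocyanidins, or condensed tannins, are polymers of flavan-3-ols that give unripe strawberries their astringency. Leucoanthocyanidin reductase makes catechin from leucoanthocyanidin, upstream of the anthocyanidins, whereas anthocyanidin reductase makes epicatechin from anthocyanidins such as cyanidin. Both enzymes therefore compete for intermediates with the steps that lead to the red anthocyanins, and in strawberry fruit proanthocyanidins are made mainly at the early, green stages.

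Gene expression was measured in receptacles, the fleshy part of the strawberry fruit, of Fragaria x ananassa. The study names the receptacles of both groups as red, that is ripe. Fruits were injected with Agrobacterium tumefaciens carrying either pFRN-FaPRE1, a hairpin construct directed against FaPRE1 (RNAi, 3 samples), or the empty pFRN vector (control, 3 samples). FaPRE1 encodes an atypical HLH protein, which lacks the DNA-binding basic region of bHLH factors. The samples of both groups thus share the bacterium, the injection and the vector backbone, the silencing is transient and need not reach every cell, and each sample pools several fruits from which the achenes were removed. The genotype field describes the RNAi samples as overexpressing, while titles and sources name the RNAi construct, so they are called RNAi here. Samples of the same replicate number shared a 2-colour array, with the RNAi sample in Cy3 on arrays 1 and 3 and in Cy5 on array 2.

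Between 60.7% and 72.7% of gene spots were well above background in the control samples and between 44.1% and 60.4% in the RNAi samples. Of the gene names, 21098 were measured well enough to be tested. The probe with the array name FaPRE1 had log2 ratios of RNAi over control of -0.49, -0.54 and -0.53 on arrays 1, 2 and 3 (mean -0.52, limma adjusted p = 0.015). That of gene30478, the study's gene model for it, had -0.0075, -0.76 and -0.21 (mean -0.33, limma adjusted p = 0.18). Of all tested genes, 17.9% were called lower in RNAi, so these values cannot check the labels. The 6 listed genes of seed storage proteins, which mark achenes, were all higher in RNAi, with a summed log2 signal of 13.27 to 13.75 in control and 17.11 to 17.27 in RNAi samples. The 8 listed chlorophyll-binding protein genes, which mark green tissue, were likewise all higher after loess (12.47 to 12.54 and 14.46 to 14.52), although 6 of them lay below 0 against the spike-in controls described below and 1 below 0 with median centring over all gene spots, and the 6 listed genes of the ripe receptacle were all lower (17.08 to 17.34 and 13.61 to 13.99). These markers were picked here from genes that the study had selected on the same samples, so their direction is no independent evidence. All 20 were well above background in every sample, and their part in the results below was not tested. In such bulk samples, fewer cells of a type and less RNA per cell cannot be told apart.

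The probes of the 3 genes differed in how far they rose above the local background, which sets how firmly each can be read. The FaLAR spots were the clearest, with signals 210-fold to 387-fold the background in control samples and 26.6-fold to 44.4-fold in RNAi samples. The FaANR1 spots lay 7.94-fold to 24.4-fold above it in control and 7.40-fold to 13.5-fold in RNAi samples. The gene24665 spots were dim, at 1.85-fold to 9.33-fold in control and 1.96-fold to 4.71-fold in RNAi samples. All 12 readings of each gene were flagged well above background by the scanner software, and none was saturated or an outlier. The paired spots of a sample differed by at most 0.33 on the log2 scale for FaLAR and 0.17 for FaANR1, and by 0.29 to 0.56 for gene24665. A further probe, named FaANR2 on the array and outside the 3 names, was not well above background in any sample.

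The first question was whether the transcripts of these reductases differed between RNAi and control receptacles. FaLAR was lower in the RNAi samples, and FaANR1 was higher when read against genes of like signal on its array, while gene24665 did not pass the test. The direction of FaANR1 and gene24665 changed on some other scales, given below. The signals below are log2 values after background correction, loess within each array and scaling between arrays.

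FaLAR had normalized signals of 13.04, 12.99 and 12.92 in control samples 1, 2 and 3 and of 11.74, 11.65 and 11.88 in RNAi samples 1, 2 and 3. Every RNAi sample lay below every control sample, and the samples of a group lay close together. The means were 12.98 ± 0.06 and 11.76 ± 0.12 (SD, n = 3). The log2 ratio of RNAi over control was -1.31, -1.34 and -1.03 on arrays 1, 2 and 3. The mean log2 ratio was -1.22 (SE 0.12, 95% interval -1.52 to -0.93, n = 3, limma adjusted p = 0.0018), a fall of 2.34-fold. Of all genes tested, 641 had a lower ratio.

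FaANR1 had normalized signals of 9.66, 8.60 and 8.33 in control samples 1, 2 and 3 and of 10.12, 10.12 and 10.21 in RNAi samples 1, 2 and 3. The RNAi samples were nearly equal and lay above every control sample, whereas control sample 1 stood 1.20 above the mean of the other control samples. The means were 8.86 ± 0.70 in control and 10.15 ± 0.05 in RNAi samples (SD, n = 3). The ratios were 0.46, 1.52 and 1.88 on arrays 1, 2 and 3 (SD 0.74). The SE and interval that follow are limma's moderated values, which borrow spread from all genes. For FaANR1 they are narrower than these 3 ratios alone would give. The transcript was higher by 1.29 (SE 0.27, 95% interval 0.61 to 1.96, n = 3, limma adjusted p = 0.017), or 2.44-fold, when read against genes of like signal. Of all genes tested, 885 had a higher ratio.

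This call depended on which array was left out. Without replicate 2 the ratio was 1.17 (limma adjusted p = 0.11), without replicate 3 it was 0.99 (limma adjusted p = 0.070), and without replicate 1 it was 1.70 (limma adjusted p = 0.00023).

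The second anthocyanidin reductase entry, gene24665, had normalized signals of 8.20, 6.88 and 7.04 in control samples 1, 2 and 3 and of 8.26, 8.08 and 7.69 in RNAi samples 1, 2 and 3. The groups overlapped, because control sample 1 was higher than RNAi samples 2 and 3. The means were 7.38 ± 0.72 and 8.01 ± 0.29 (SD, n = 3). The ratios were 0.06, 1.20 and 0.64 on arrays 1, 2 and 3 (SD 0.57), so that array 1 showed almost no difference. Here too the moderated SE is smaller than these 3 ratios alone would give. The mean log2 ratio was 0.63 (SE 0.22, 95% interval 0.09 to 1.18, n = 3, limma adjusted p = 0.073). The study lists this gene among those higher in RNAi, selected on the same samples by thresholds on both fold change and p. A call here rests on the adjusted p alone, so the criteria differ. The study's methods ask for a log2 fold change beyond 2 in size, which the ratio of 0.63 here does not reach. The listing and the value here thus differ in the size of the ratio too, and why was not tested. Without replicate 1 the ratio was 0.92 and passed the test (limma adjusted p = 0.0062), whereas it was 0.35 without replicate 2 (limma adjusted p = 0.24) and 0.63 without replicate 3 (limma adjusted p = 0.21). With the scanner software's processed signals it was 1.11 and did not pass (limma adjusted p = 0.058). It passed without background subtraction (0.74, limma adjusted p = 0.042) and with a smaller offset in the background correction (0.88, limma adjusted p = 0.035). An offset pulls the ratios of dim probes towards 0.

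**Figure D1:**
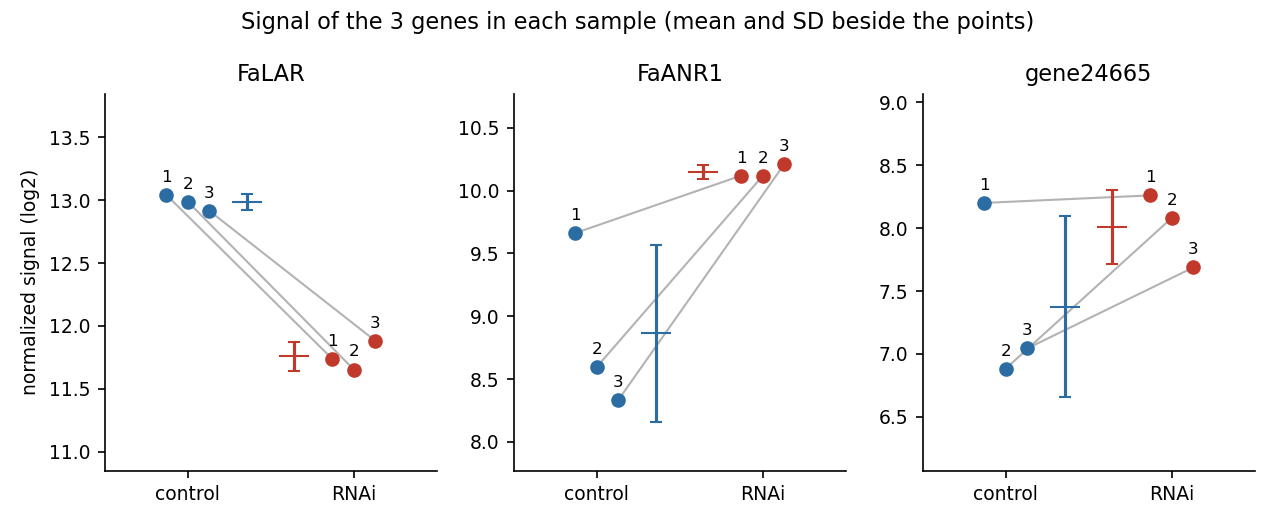
Normalized log2 signal of FaLAR, FaANR1 and gene24665 in control (blue) and RNAi (red) samples, with lines that join the samples of one array, the replicate number above each point, and the mean ± SD beside the points. Each panel spans 3 log2 units. The FaLAR groups are apart, with a mean ratio of -1.22, whereas control sample 1 is close to the RNAi samples for FaANR1 and lies among them for gene24665.

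Over all genes, 34.8% were called at an adjusted p under 0.05, 16.9% higher and 17.9% lower in RNAi, and groups that did not overlap were found for 50.7%, with RNAi above in 24.7% and below in 26%. The calls of 2 of the 3 transcripts, and the lack of overlap in the same 2, are to be read against those shares. After loess, the ratio was below 0 on every array for FaLAR and above 0 on every array for FaANR1 and gene24665, whereas against the spike-ins, described below, all 3 were below 0 on every array and FaLAR had the lowest ratio on each.

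The spread among control samples was unequal too. The SD of FaANR1 and gene24665 over the control samples was larger than that of 96.7% and 97.0% of all genes tested, and in each case the high value was that of control sample 1. The corresponding share was 9.45% for FaLAR. Among RNAi samples the share was 15.3% for FaANR1 and 95.6% for gene24665.

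Since FaLAR and FaANR1 were read on the same arrays, the difference between their ratios does not depend on any constant by which an array is scaled. Loess is no such constant, because what it removes depends on signal, and the differences on single arrays below are those after loess. The FaLAR ratio minus the FaANR1 ratio was -1.76, -2.86 and -2.91 on arrays 1, 2 and 3, a mean of -2.51 ± 0.65 (SD, n = 3). It had the same sign on all 3 arrays. An exact 2-sided sign-flip permutation test gave p = 0.25, the smallest p that 3 arrays allow, with adjusted p = 0.25 over the 3 pairs. The FaLAR ratio minus that of gene24665 was -1.36, -2.53 and -1.68, a mean of -1.86 ± 0.61 (SD, n = 3, exact permutation p = 0.25). FaLAR thus lay below the described anthocyanidin reductase on every array as well. With median centring in place of loess, the mean FaLAR difference was -2.61 from FaANR1 and -2.61 from gene24665. Against the spike-ins it was -2.62 and -2.54. The FaANR1 ratio minus that of gene24665 was 0.40, 0.32 and 1.23, a mean of 0.65 ± 0.51 (SD, n = 3, exact permutation p = 0.25). That difference was -0.0042 with median centring in place of loess, and 0.08 against the spike-ins, so no order between the 2 entries held across scalings.

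The next question was on which scale a rise or a fall is read. The arrays carried 10 probes for spike-in transcripts, RNAs from outside the plant that are added during labelling, each printed as 35 spots. On the background-subtracted signals without further normalization, the median of all tested genes lay below the spike-ins, at -1.25, -2.18 and -2.49 on arrays 1, 2 and 3 (RNAi over control, log2). The amounts of spike-in added are not given in the sources used here, so a common offset between the dyes may remain, with the opposite sign on array 2. Values on this scale carry no test.

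Against the spike-ins of the same channel, control samples 1, 2 and 3 gave FaLAR log2 signals of 1.19, 1.69 and 2.03. The RNAi samples, in the same order, gave -1.78, -1.70 and -1.85. The groups were far apart, and the ratio was -2.97, -3.40 and -3.88 on the 3 arrays, with a mean of -3.41 ± 0.46 (SD, n = 3). FaLAR was therefore lower in RNAi after loess and against the spike-ins alike.

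On the same scale, control samples 1, 2 and 3 gave FaANR1 log2 signals of -2.30, -2.94 and -2.70 against the spike-ins. The RNAi samples, in the same order, gave -3.44, -3.42 and -3.47. Here every RNAi sample lay below every control sample, the reverse of the order after loess. For FaLAR and FaANR1 alike, the share of all genes whose groups do not overlap on this scale was not computed. Of all tested genes, 83.2% had ratios below 0 on every array against the spike-ins. The ratio was -1.14, -0.48 and -0.76, a mean of -0.79 ± 0.33 (SD, n = 3), and -0.72 with both dye orientations weighted equally.

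Control samples 1, 2 and 3 gave gene24665 log2 signals of -4.10, -5.72 and -4.92 against the spike-ins. The RNAi samples, in the same order, gave -5.48, -5.80 and -6.08. The groups overlapped on this scale too, with control sample 1 highest. The ratio was -1.38, -0.08 and -1.16, a mean of -0.87 ± 0.70 (SD, n = 3), or -0.68 with both dye orientations weighted equally. Of all tested genes, 83.2% had ratios below 0 on all 3 arrays against the spike-ins, as FaLAR, FaANR1 and gene24665 did. A mean ratio below -1, that is a fall of more than 2-fold, was found for 81.5% of genes, and of the 3 reductases FaLAR alone was among them. The mean ratio of FaLAR ranked at percentile 5.28 of all genes, that of FaANR1 at percentile 85.5 and that of gene24665 at percentile 84.0.

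The loess step sets each ratio against genes of like signal on the array. Before it, the ratio of FaLAR was -3.86, -1.73 and -4.66 on arrays 1, 2 and 3, and loess removed -2.55, -0.39 and -3.63. The ratio of FaANR1 was -1.96, 1.05 and -1.51, with -2.42, -0.47 and -3.39 removed. On arrays 1 and 3, where the RNAi sample was in Cy3, FaANR1 was therefore dimmer in the RNAi channel as scanned and higher only relative to genes of like signal. Array 2, where the RNAi sample was in Cy5, showed it brighter before loess as well.

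**Figure D2:**
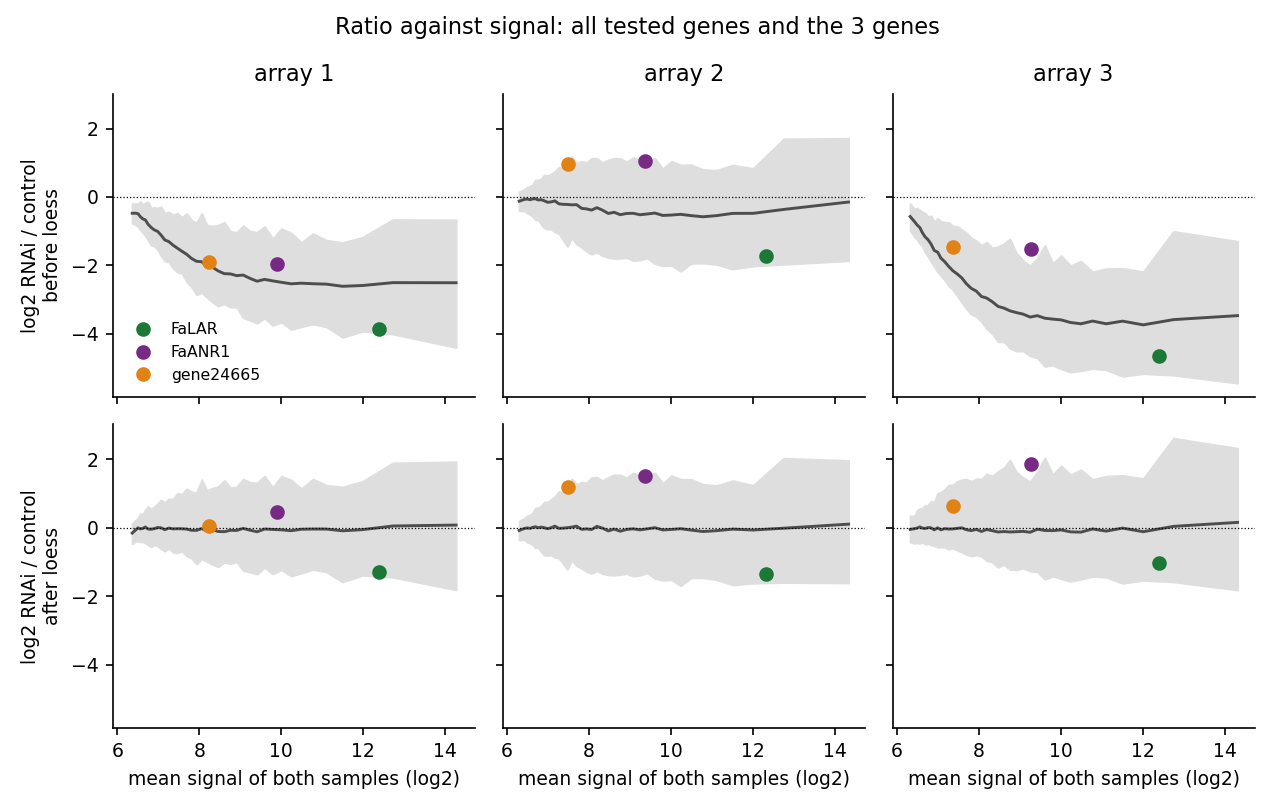
Log2 ratio of RNAi over control against the mean log2 signal on each array, before (top) and after loess (bottom), after background correction. The line is the median and the grey band the 5th to 95th percentile of all 21098 tested genes in bins of signal, and the coloured points are FaLAR (green), FaANR1 (purple) and gene24665 (orange). FaLAR lies below the line on every array, at -1.31, -1.34 and -1.03 after loess, and FaANR1 above it at 0.46, 1.52 and 1.88.

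With median centring over all gene spots in place of loess, FaLAR was at -2.76 (limma adjusted p = 0.051), FaANR1 at -0.15 (limma adjusted p = 0.84) and gene24665 at -0.15 (limma adjusted p = 0.84), with the median of all tested genes at -0.86. With median centring over the tested genes they were at -1.88 (limma adjusted p = 7.9e-07), 0.73 (limma adjusted p = 0.054) and 0.73 (limma adjusted p = 0.052). The direction of FaLAR was the same under all 17 alternatives, and the directions of FaANR1 and gene24665 under 14 of 17, all but the centring over all gene spots and the spike-in scalings.

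**Figure D3:**
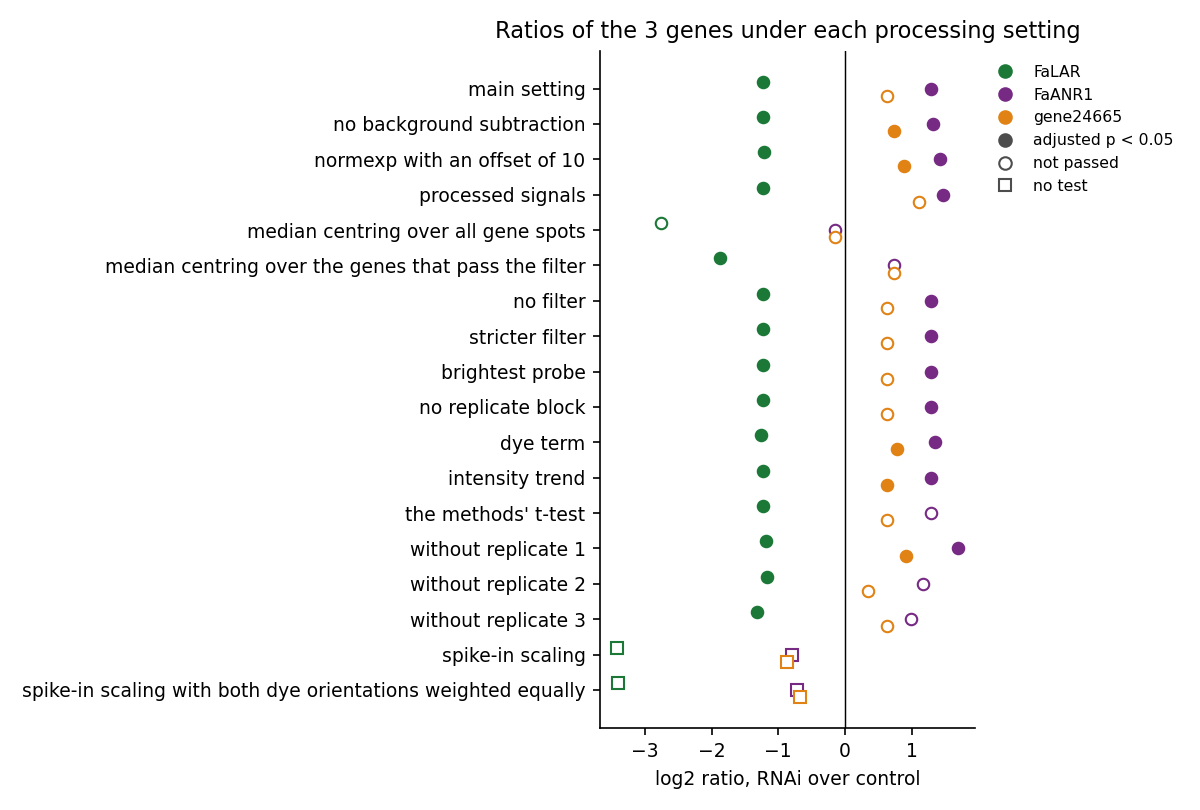
Log2 ratio of RNAi over control (horizontal axis) of FaLAR (green), FaANR1 (purple) and gene24665 (orange) under the main processing and each alternative. Filled circles passed an adjusted p under 0.05 in the named test, open circles did not, and open squares are values without a test. FaLAR stays between -3.41 and -1.17, while FaANR1 runs from -0.79 to 1.70 and gene24665 from -0.87 to 1.11.

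The RNAi samples in Cy3 and Cy5 were also set against the control samples of the same dye. In Cy3, with 2 RNAi samples and 1 control sample, the difference in normalized signal was -1.18 for FaLAR, 1.57 for FaANR1 and 1.09 for gene24665. In Cy5, with 1 RNAi sample and 2 control samples, it was -1.33, 1.12 and 0.46. After normalization the directions were the same in each dye, and only FaLAR had nearly equal values. Loess had already been applied, so this comparison does not check it. As scanned, less background, the FaANR1 spots in Cy5 gave 777 to 873 in RNAi and 992 to 1781.5 in control samples. Those of gene24665 in Cy5 gave 143 to 175 and 202 to 583. In Cy3 the groups overlapped for both genes, and FaLAR was lower in RNAi in each dye.

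The last question was how the branch stood beside the steps that supply it and compete with it. The genes around it were taken from a list of 22 array names and gene models of phenylpropanoid and flavonoid synthesis, transport and regulation, of which 19 were tested. Of these, 15 fell, 2 rose and 2 did not pass the test, and their median ratio was -1.84 against -0.04 for all genes tested, of which 17.9% were called lower and 16.9% higher. An array name and a gene model can stand for the same gene, so the entries are not independent of each other. The lists were also written with earlier results of these data known. The counts here and in the paragraphs below are therefore a description, and their excess over the shares of all genes is no evidence of enrichment.

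At the entry to the pathway, gene12222, described as a cinnamate 4-hydroxylase, rose by 2.18 (SE 0.13, limma adjusted p = 0.00053), and gene15877, described as a 4-coumarate-CoA ligase, rose by 2.65 (SE 0.22, limma adjusted p = 0.0013). Both were also above 0 on average against the spike-ins, at 0.32 ± 0.82 and 1.36 ± 0.73 (SD, n = 3), although gene12222 was at -0.34 on array 3, and with median centring over all gene spots they were at 0.86 and 1.56. FaANR1 and gene24665 were below 0 on that scale.

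All 5 tested entries of the early flavonoid steps, which make the dihydroflavonols, fell, with ratios between -2.22 and -1.84, beside 17.9% of all genes called lower. They were the chalcone synthases gene26825 and gene26826, the chalcone isomerase gene23367, and the flavanone 3-hydroxylase entries FaFHT and gene14611. FaFLS, a flavonol synthase entry, was not well above background in any sample.

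Dihydroflavonol reductase supplies leucoanthocyanidin, the substrate of leucoanthocyanidin reductase. FaDFR1 fell by 0.96 (SE 0.28, limma adjusted p = 0.047) and FaDFR1C was at -0.88 (SE 0.33, limma adjusted p = 0.086). Their ratios on array 1 were -0.07 and 0.17, against -1.31 and -1.48 for FaDFR1 and -1.47 and -1.33 for FaDFR1C on arrays 2 and 3. Without replicate 1 the ratios were -1.40 and -1.40 (limma adjusted p = 0.00043 and 0.00041), and without replicate 2 or 3 neither passed, with FaDFR1 at -0.78 and -0.69 and FaDFR1C at -0.58 and -0.65. Control sample 1 was the low one here, at 13.55 against 14.77 and 14.80 for FaDFR1, whereas it was the high one for FaANR1 and gene24665. The same sample did not stand apart for FaLAR.

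Anthocyanidin synthase, which makes the substrate of anthocyanidin reductase from that of leucoanthocyanidin reductase, was read by FaANS. It fell by 1.36 (SE 0.15, limma adjusted p = 0.0023), near the FaLAR ratio of -1.22. FaUFGT, the glucosyltransferase that turns anthocyanidins into anthocyanins and so shares a substrate with anthocyanidin reductase, fell by 1.45 (SE 0.21, limma adjusted p = 0.0054). The related gene26353, described as similar to such a glucosyltransferase, fell by 2.25 (SE 0.25, limma adjusted p = 0.0025). After loess, the enzymes that make or share the substrate of anthocyanidin reductase thus had lower ratios, while FaANR1 was at 1.29. The other entry, gene24665, was at 0.63 and did not pass. With median centring over all gene spots, FaANR1 and gene24665 were both at -0.15, FaANS at -2.83 and FaUFGT at -2.96. Whether these ratios differ from those of FaLAR or FaANR1 was not tested.

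**Figure D4:**
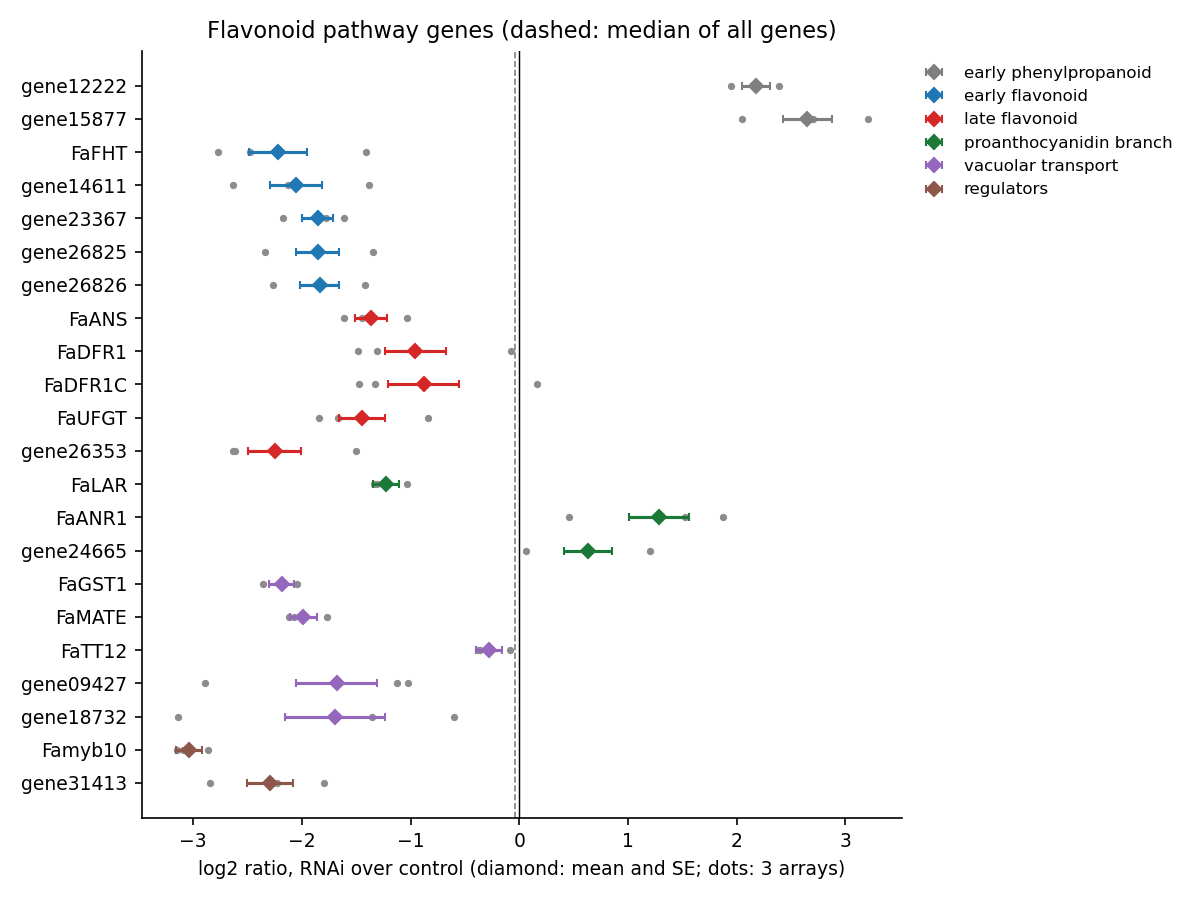
Log2 ratio of RNAi over control for FaLAR, FaANR1 and gene24665 (green) and 19 tested entries of the pathway lists, ordered from the entry of the pathway to transport and regulators. Diamonds are means over 3 arrays with limma's moderated SE and dots single arrays, and the dashed line is the median of all tested genes, -0.04. FaLAR, at -1.22, lies among the flavonoid genes that fell, and FaANR1, at 1.29, between these and the early phenylpropanoid genes at 2.18 and 2.65.

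Of the 5 tested entries of vacuolar transport, 4 fell, beside 17.9% of all genes called lower. Some plant glutathione S-transferases bring anthocyanins to the vacuole. FaGST1 fell by 2.19 (SE 0.12, limma adjusted p = 0.00043). The entries gene09427 (-1.68, SE 0.37, limma adjusted p = 0.020) and gene18732 (-1.70, SE 0.46, limma adjusted p = 0.036) fell too. For gene09427 and gene18732 control sample 1 stood high, at 12.15 and 12.64 against 10.23 to 10.74 in the other control samples. Without replicate 1 their ratios were -1.07 and -0.98 (limma adjusted p = 0.0015 and 0.0078), and without replicate 2 neither passed (limma adjusted p = 0.057 and 0.12). FaMATE, a transporter of the multidrug and toxin extrusion family, fell by 1.99 (SE 0.12, limma adjusted p = 0.00059). FaTT12 carries the name of an Arabidopsis transporter that moves proanthocyanidin precursors into the vacuole. Its ratio was -0.28 (SE 0.12, limma adjusted p = 0.12), and its probe was well above background in 3 of 3 control samples and 1 of 3 RNAi samples. The value of this dim probe was -1.59 with the scanner software's processed signals and 0.43 with median centring over the tested genes. A similar entry, gene00576, and the glutathione S-transferase gene31672 were not well above background in any sample.

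The regulators tested were Famyb10 and gene31413, entries for MYB10, the activator of fruit anthocyanin genes. Both fell, with ratios of -3.04 (SE 0.12, limma adjusted p = 0.00031) and -2.29 (SE 0.21, limma adjusted p = 0.0016). The entry gene31413 is also among the listed genes of the ripe receptacle above, so both mentions rest on the same measurement. The other regulators searched for by name, among them MYB9, MYB11, MYB5 and TTG1, had no entry under these names.

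Finally, the tested genes whose signal over the 6 samples was most like that of each reductase were looked up among 412 genes. These carry a strawberry gene name on the array or a description in the study's lists of genes changed in both RNAi and ripening. The described genes were thus selected on these same samples, and the 6 samples fall into the 2 groups. A high r was therefore likely from the start, and these values are only a description. FaLAR was most like gene31679, described as a small ubiquitin-related modifier (Pearson r = 0.999), followed by gene18910, a 3-hydroxyisobutyryl hydrolase entry, and gene20967, described as a non-coding RNA (r = 0.999 and 0.998). Those genes had ratios of -1.57, -2.90 and -2.88. FaANR1 was most like gene31270, a CBS domain protein gene (r = 0.998), gene22838, an amido synthetase that conjugates auxin (r = 0.995), and gene13871, a lipid transfer protein gene (r = 0.992), with ratios between 1.74 and 2.83. For gene24665 the closest were gene28290, whose description names no function (r = 0.959), and gene26870 and gene26872, nitrate or peptide transporter genes (r = 0.947 and 0.942). Their ratios were 1.60, 1.38 and 1.44. None of the 9 closest genes belonged to the pathway lists, which says little given how the 412 genes were chosen.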

How the data were processed

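The authors deposited the output of Agilent Feature Extraction 10.7 for 3 arrays, per the labels, each with 62976 spots, 1319 of them controls. Per the file headers, median spot signals and median local backgrounds are intensity values without correction, and the processed signals are intensity values after background, spatial and dye correction. The deposited files hold other columns of spot flags (well above background, saturated, outlier), which were used as given. The methods name cultivated strawberry receptacles and pooled fruits, whereas 1 label protocol mentions floral buds. Groups were taken from the sample descriptions, and replicate numbers pair control and RNAi samples, each pair having been hybridised together. Across genes, which are not independent replicates, the deviations of paired samples from their group's mean correlated at 0.43, -0.04 and 0.17. The 3 arrays came from 1 slide and 1 scan. Nothing in the labels says that samples came from separate plants, so p values measure the spread between these pools.

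Values were obtained with limma 3.58.1 in R 4.3.3. The background was removed by normexp (offset 50), log ratios were normalized by loess within arrays with control and outlier spots at weight 0, and signals per sample were scaled by Aquantile. A probe passed when 50% or more of its spots were well above background in every sample of the control or of the RNAi group (21218 probes, 21098 genes). Spots of a probe and probes of a gene were averaged. Another 2 probes carried no gene name and were not used. Log2 ratios, 1 per array, were tested with lmFit and eBayes and adjusted by Benjamini-Hochberg over all tested genes, and a gene was called where the adjusted p was under 0.05. The number of arrays limits the precision. The procedure was tested on simulated data in which few genes changed, as many up as down. That setting differs from these data, where many genes were called, so it cannot say which scaling is right here.

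The genes named are FaLAR, FaANR1, gene24665, the pathway lists and the 3 genes most like each of the former. The genes and lists were chosen with earlier results of these data known. Alternatives were other background corrections, normalizations, filters, tests and thresholds, the brightest probe, no array block, a dye term, leaving out each replicate and spike-in scaling. The version of the latter that weights dye orientations equally was added after the data were seen. Median signals took the place of mean signals. No sequence of the probes was at hand, and the reference table of RefSeq genes shares no identifiers with the arrays.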

Additional observations from a re-analysis of the deposited data

How the results depend on the processing

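The FaLAR ratio kept its direction under all 17 alternatives (-3.41 to -1.17) and passed the test in all that give one except median centring over all gene spots (-2.76, limma adjusted p = 0.051). Its value was -3.41 in both spike-in scalings. FaANR1 was no longer past the threshold with median centring over the genes that pass the filter (0.73, limma adjusted p = 0.054) and with the methods' t-test on the same signals (1.29, unadjusted p = 0.034, adjusted p = 0.095), and its direction turned with centring over all gene spots (-0.15) and against the spike-ins (-0.79, or -0.72 with dye orientations weighted equally). Leaving out 1 replicate gave values from 0.99 to 1.70. The gene24665 ratio passed without background subtraction (0.74), with an offset of 10 (0.88), with a dye term (0.78) and with an intensity trend (0.63), and it turned with centring over all gene spots (-0.15) and against the spike-ins (-0.87, or -0.68 weighted). Leaving out 1 replicate gave 0.35 to 0.92. The difference of FaANR1 and gene24665 turned to -0.0042 under both median centrings. In a fit without the array as a replicate block, the adjusted p was 0.00031 for FaLAR, 0.018 for FaANR1 and 0.19 for gene24665, which changed no call.

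The count of genes called was 7350, and 0 with centring over all gene spots in limma (9061 genes at an unadjusted p under 0.05), where the pathway lists also had 0 calls against 17. It was 3419 at an adjusted p under 0.01 and 3458 to 7125 without 1 replicate. The methods' t-test gave 4934 after Benjamini-Hochberg adjustment. With the processed signals, 41.9% of calls were higher against 48.5% here, and with centring over the tested genes 54.8%. The cause of these changes was not tested. The dim probe of gene24665 and the use of 1 probe per gene limit what can be said of anthocyanidin reductase.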
